A study of Mus musculus with 10 samples.

Results

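The 10 genes described here mark 2 kinds of granule-bearing white blood cell. The 6 neutrophil genes were S100a8, S100a9, Ly6g, Mpo, Elane and Csf3r, and the 4 mast cell genes were Cpa3, Mcpt4, Tpsb2 and Fcer1a. They were chosen by name as textbook markers, and their Ensembl identifiers were looked up among the 21792 genes of the RNA-sequencing values. Only 5 of the 10 had a row there: S100a8, S100a9, Ly6g and Csf3r of the neutrophil genes and Cpa3 of the mast cell genes. Mpo, Elane, Mcpt4, Tpsb2 and Fcer1a had no row and were not analysed here. Every gene with a row was above 0 in at least 1 mouse, and the annotation used for gene symbols holds 55450 genes.

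The study profiled the renal cortex of wild type (WT) mice with the levels of the zinc-dependent histone deacetylases in fibrotic kidney in view. The model was aristolochic acid nephropathy (AAN), a toxic injury of the tubules that goes on to fibrosis. The 6 AAN mice had received aristolochic acid once, intraperitoneally, at 5 mg/kg, and the 4 sham mice had received PBS. All were taken at day 28, and the methods of the study give male C57BL/6 mice aged 8 weeks for this model. Each mouse gave its own library, with no pooling, so the mouse was the replicate, and mice are named below by the tags of their labels.

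Neutrophils are short-lived phagocytes that are made in the bone marrow, circulate in blood and enter tissue along gradients of chemokines and complement fragments. S100a8 and S100a9 encode the subunits of calprotectin, a calcium- and zinc-binding protein stored in large amounts in their cytoplasm and also made by some monocytes. Csf3r encodes the receptor for granulocyte colony-stimulating factor, Ly6g a surface protein used to stain mouse neutrophils, and Mpo and Elane (myeloperoxidase and neutrophil elastase) proteins of the first granules, whose transcripts are made mostly by precursors in the marrow. Mast cells mature inside tissues, carry the high-affinity receptor for IgE and store histamine and proteases. Cpa3 encodes carboxypeptidase A3, Mcpt4 a chymase, Tpsb2 a tryptase and Fcer1a the IgE-binding chain of that receptor. Mast cells are sparse in a healthy kidney.

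The stretches before the start sites of the 4 genes that stand for the comparison, 3 neutrophil genes with values in both groups and the only mast cell gene with a row, are printed so that the regulatory sequence can be read beside the levels. Each is the 250 bases before the start of the gene in RefSeq on GRCm38.p6, given 5′ to 3′ on the strand of the gene. The table held 9 of the 10 genes, all but Tpsb2. S100a8 lies on the plus strand and its stretch is chr3:90668821-90669070, S100a9 on the minus strand with chr3:90695722-90695971, Csf3r on the plus strand with chr4:126024409-126024658, and Cpa3 on the minus strand with chr3:20242182-20242431. Capitals mark every match, on either strand, to GAGGAA, a core bound by PU.1 and other ETS factors of myeloid cells, or to AGATAA, a core bound by GATA factors. These 2 words do not overlap each other in the stretches. The last bases of the S100a8 and Csf3r stretches lie inside the spans given for these genes below, since GENCODE starts both genes further upstream than RefSeq.
S100a8: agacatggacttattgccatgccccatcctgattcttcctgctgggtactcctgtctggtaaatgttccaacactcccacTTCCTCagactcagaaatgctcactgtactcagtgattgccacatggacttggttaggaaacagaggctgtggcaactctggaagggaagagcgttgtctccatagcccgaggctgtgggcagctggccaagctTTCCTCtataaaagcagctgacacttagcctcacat
S100a9: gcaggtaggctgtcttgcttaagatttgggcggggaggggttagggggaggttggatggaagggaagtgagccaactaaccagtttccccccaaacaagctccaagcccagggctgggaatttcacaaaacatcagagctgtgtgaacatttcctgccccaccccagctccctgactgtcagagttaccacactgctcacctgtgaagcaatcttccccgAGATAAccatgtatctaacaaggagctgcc
Csf3r: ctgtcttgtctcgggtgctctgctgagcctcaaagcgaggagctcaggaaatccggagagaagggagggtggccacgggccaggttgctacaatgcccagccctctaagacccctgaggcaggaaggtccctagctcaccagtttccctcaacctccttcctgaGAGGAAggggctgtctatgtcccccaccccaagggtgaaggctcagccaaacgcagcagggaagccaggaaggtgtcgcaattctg
Cpa3: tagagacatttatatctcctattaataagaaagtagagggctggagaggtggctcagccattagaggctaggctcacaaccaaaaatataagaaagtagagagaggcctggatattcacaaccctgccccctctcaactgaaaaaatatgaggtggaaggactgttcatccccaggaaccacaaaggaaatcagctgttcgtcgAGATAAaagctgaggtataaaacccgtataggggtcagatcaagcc
The ETS word lay at -170 and -36 in S100a8, on the minus strand relative to the gene, and at -86 in Csf3r, on the plus strand. The GATA word was at -46 in Cpa3 and at -30 in S100a9. Of 32851 such stretches of all genes in the table, 23.25% held the ETS word and 9.988% the GATA word, so the matches are a description of the letters and not of bound sites.

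The values are FPKM, fragments scaled to gene length in kilobases and to depth in M fragments, so levels of different genes can be set side by side per length. The depth recovered from the steps of low values was 15.8 to 17.5 M fragments in sham mice and 13.4 to 16.5 M in AAN mice. Between 16690 and 17639 genes were above 0 in a sham mouse and between 19158 and 19636 in an AAN mouse, and mitochondrial genes made up 39.5% to 61.4% of all FPKM in sham and 21.4% to 55.0% in AAN mice. On log2(FPKM + 0.1), the median change over the 17129 genes tested was 0.75 higher in AAN mice, so each change below is also set against it. Sham mouse B607, with S100a8 and S100a9 at 0, and AAN mouse B614, with the lowest Csf3r, S100a8 and S100a9 of its group, stand apart in the results below, which are therefore also given without the mouse that matters.

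The neutrophil genes with measurable levels were higher in AAN cortex, and the mast cell gene was at or near 0 in both groups. All 3 neutrophil genes tested passed the limits (a limma adjusted p of at most 0.05 and a change of at least 2-fold), in the direction of AAN, against 35.8% of all genes tested. All 3 changes were positive, as were 82.3% of those of all genes, and 3.43% of all genes passed as lower. Ly6g and Cpa3, with a mean under 0.1 FPKM, were not tested in that fit, so no mast cell gene was tested by limma. The filter is on the mean over all mice, and a gene with a sham mean under 0.1 FPKM could enter the fit only through AAN mice. Of 2058 such genes 74.1% passed as higher, against 30.5% of the other 15071, so the counts of the lists below are also given for genes with a sham mean of 0.1 FPKM or more. In tissue RNA, fewer cells of a type and less RNA per cell cannot be told apart.

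Csf3r, the receptor through which granulocyte colony-stimulating factor drives the making and release of neutrophils, had the clearest difference. Which cells of the cortex carried its transcripts was not tested. The gene (ENSMUSG00000028859) spans chr4:126024550-126044440 on the plus strand of GRCm38. Its FPKM was 0.228 in B607, 0.194 in B634, 0.330 in B636 and 0.242 in H249 of the sham mice. In the AAN mice it was 6.98 in A483, 1.77 in B614, 5.69 in B630, 7.82 in B639, 5.97 in B642 and 5.75 in B666. The groups did not overlap, as for 40.3% of all genes tested with every AAN mouse above every sham mouse, and B614, the lowest AAN mouse, was still well above the highest sham mouse. Sham values rested on at most 11.1 to 19.6 fragments a mouse and AAN values on at most 100 to 415. The mean rose from 0.248 ± 0.0580 (SD, n = 4) to 5.66 ± 2.08 (SD, n = 6). The log2 change was 3.93 (SE 0.35), with a limma adjusted p of 2.52e-06 and an exact two-sided permutation p of 0.00476, the smallest that the 210 splits of the mice can give. It lay 3.19 above the median change of all genes, at percentile 97.3.

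**Figure D1:**
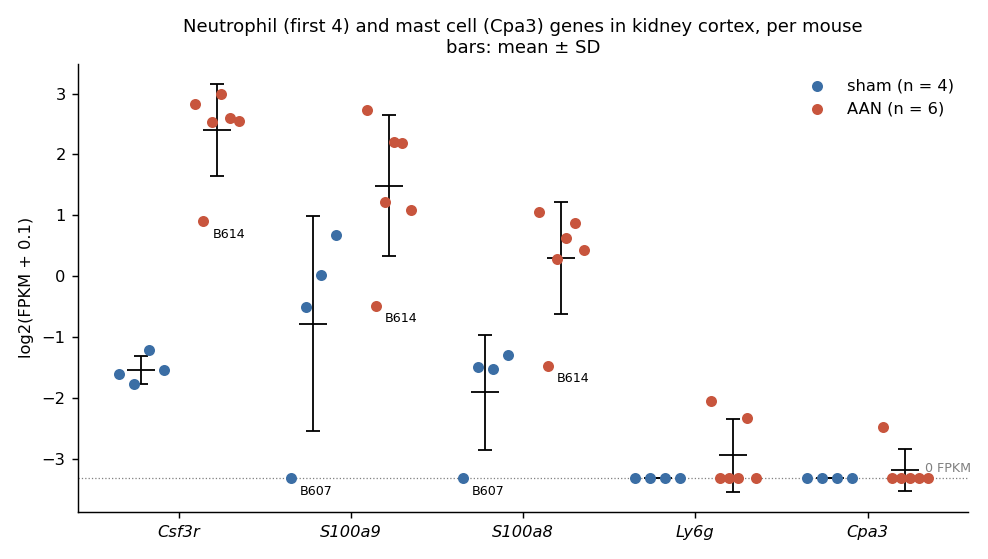
Level of each neutrophil gene with a row (Csf3r, S100a9, S100a8, Ly6g) and of the mast cell gene Cpa3 in each mouse, as log2(FPKM + 0.1), with 4 sham mice in blue and 6 AAN mice in red. Black bars are the mean ± SD and the dotted line marks a value of 0 FPKM. Csf3r separates the groups, S100a8 and S100a9 overlap through B614, and nearly all Ly6g and Cpa3 values are at 0.

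S100a8, the smaller calprotectin subunit, was at the limit of detection in sham mice. The gene (ENSMUSG00000056054) spans chr3:90668978-90670035 on the plus strand. Its FPKM in sham mice was 0 in B607, 0.256 in B634, 0.247 in B636 and 0.308 in H249. These 4 values were all at or under the level of 3 fragments, which is 0.344 to 0.380 FPKM there, and a value of 0 allows up to that level. In AAN mice S100a8 was at 1.97 in A483, 0.259 in B614, 1.11 in B630, 1.44 in B639, 1.74 in B642 and 1.25 in B666. B614 lay inside the sham range, and the other 5 AAN mice were above every sham mouse. The mean rose from 0.203 ± 0.138 (SD, n = 4) to 1.295 ± 0.598 (SD, n = 6). The log2 change was 2.21 (SE 0.52), with a limma adjusted p of 0.00318 and an exact permutation p of 0.0143. Sham levels were low, and the size depended on the value added before the logarithm, from 0.89 with 1 FPKM added, which is under the 2-fold limit, to 3.20 with 0.01 added. Under quantile normalization the change was 1.17 with an adjusted p of 0.144.

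S100a9, the larger subunit, followed S100a8. The gene (ENSMUSG00000056071) lies close to it, at chr3:90692632-90695721 on the minus strand. Its FPKM in sham mice was 0 in B607, 0.607 in B634, 0.918 in B636 and 1.50 in H249. In AAN mice it was 6.50 in A483, 0.612 in B614, 2.21 in B630, 4.51 in B639, 4.44 in B642 and 2.02 in B666. B614 again fell inside the sham range, and the other 5 AAN mice exceeded every sham mouse. The mean went from 0.756 ± 0.625 (SD, n = 4) to 3.38 ± 2.15 (SD, n = 6), a log2 change of 2.27 (SE 0.77), with a limma adjusted p of 0.0226 and an exact permutation p of 0.0333. Without sham mouse B607 the change was 1.42 with a limma adjusted p of 0.0608. It also missed the limit after scaling by the median of ratios (1.61, adjusted p 0.132) and quantile normalization (1.35, adjusted p 0.232), settings in which Csf3r kept its call.

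Ly6g, the surface protein of mature mouse neutrophils, was hardly seen. The gene (ENSMUSG00000022582) spans chr15:75155240-75159126 on the plus strand, within a cluster of closely related Ly6 genes whose shared fragments may have been split between them. It was at 0 in all 4 sham mice and in B614, B630, B639 and B666. A483 had 0.143 FPKM and B642 had 0.0993 FPKM, at most 2.21 and 1.48 fragments. All 10 values were at or under the level of 3 fragments, so no fold is given, and the exact permutation p was 0.467.

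Cpa3, the mast cell carboxypeptidase, was the only mast cell gene with a row. The gene (ENSMUSG00000001865) spans chr3:20215620-20242181 on the minus strand and overlaps the microRNA gene Mir7007. It was at 0 in 9 of the 10 mice, and in A483 it had 0.0800 FPKM, at most 2.0 fragments. The level of 3 fragments was 0.118 to 0.131 FPKM in sham mice and 0.126 to 0.155 FPKM in AAN mice. Every Cpa3 value was at or under that level in both groups, so a difference within it was not detectable at this depth. The exact permutation p was 1.

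The order of the levels in AAN mice was not seen in sham mice, where it rests on few fragments. All 4 S100a8 values and 1 S100a9 value of sham mice were at or under the level of 3 fragments. In AAN mice Csf3r was above S100a9 in 6 of 6 mice, by 0.91 ± 0.57 on the log2 scale (SD, n = 6), and S100a9 was above S100a8 in 6 of 6, by 1.19 ± 0.40. S100a8 was above Ly6g in 6 of 6, and Ly6g was above Cpa3 in 2 and equal to it at 0 in 4. In sham mice S100a9 was the highest in 3 of 4, and Csf3r and S100a8 stood in no fixed order, with Csf3r higher in 2 mice and lower in 2. The mean log2 difference of Csf3r from S100a8 there, 0.37 ± 0.93 (SD, n = 4), was smaller than its spread.

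The neutrophil genes were next set against the mast cell genes within each mouse. The mean log2 level of the 4 neutrophil genes with a row exceeded that of Cpa3 by 0.43 in B607, 1.55 in B634, 1.81 in B636 and 1.95 in H249 of the sham mice. In AAN mice the lowest was 2.22 in B614 and the highest 4.16 in B642. The groups did not overlap, with means of 1.44 ± 0.69 (SD, n = 4) and 3.49 ± 0.67 (SD, n = 6), and no test was made of this score since its members were chosen. Of single genes tested, 40.3% had every AAN mouse above every sham mouse. For the single pair S100a8 minus Cpa3 the change was 2.06 (SE 0.57, exact permutation p = 0.00952), and the pairs with Tpsb2, Fcer1a and with Elane and Mcpt4 could not be formed. Because Cpa3 was at 0 in 9 mice, this pair almost repeats S100a8 itself. It missed 0.05 after quantile normalization (1.10, exact permutation p = 0.129).

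On log2(FPKM + 0.1) S100a8 rose less than the mean of 5 general leukocyte genes, a difference that was not shown on every scale since its 4 sham values were at or under the level of 3 fragments. For Csf3r the difference missed 0.05 on this scale. The mean log2 level of Ptprc, Cd52, Cd53, Laptm5 and Coro1a, which nearly all leukocytes express, was subtracted in each mouse, a comparison added after the data were seen. S100a8 minus that mean was -4.19 in B607, -1.55 in B634, -2.19 in B636 and -2.25 in H249 of the sham mice, and from -5.77 in B614 to -4.30 in A483 among AAN mice. The groups did not overlap, though B607 was close to the AAN mice. Relative to leukocyte genes S100a8 changed by -2.26 (SE 0.52, exact permutation p = 0.00476, adjusted over the 4 such comparisons 0.00952). With 0.01 in place of 0.1 added before the logarithm it was -1.40 with an exact permutation p of 0.248.

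For S100a9 the same difference was -4.19 in B607 and between -0.64 and -0.28 in the other sham mice, against -4.78 to -2.63 in AAN mice. Its change was -2.20 (SE 0.83, exact permutation p = 0.0381, adjusted p = 0.0508), so it missed the limit with B607, which alone lay among the AAN mice. Without B607 it was -3.12 with an exact permutation p of 0.0119. For Csf3r the groups overlapped, with -2.51 to -1.83 in sham and -3.39 to -2.25 in AAN mice, a change of -0.53 (SE 0.26, exact permutation p = 0.0952). With 1 FPKM added (-1.41, exact permutation p = 0.00476) and after quantile normalization (-0.91, exact permutation p = 0.00952), the Csf3r difference passed 0.05.

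The difference between both neutrophil genes was tested directly. Csf3r minus S100a8 rose by 1.73 (SE 0.40, exact permutation p = 0.00476, adjusted p = 0.00952), from 1.71 in B607 and -0.28 to 0.31 in the other sham mice to 1.72 to 2.38 in AAN mice. B607, where S100a8 was at 0, lay just under the lowest AAN mouse. With 0.01 added the change was 1.15 with an exact permutation p of 0.257, so the unequal rise was not shown on every scale.

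**Figure D2:**
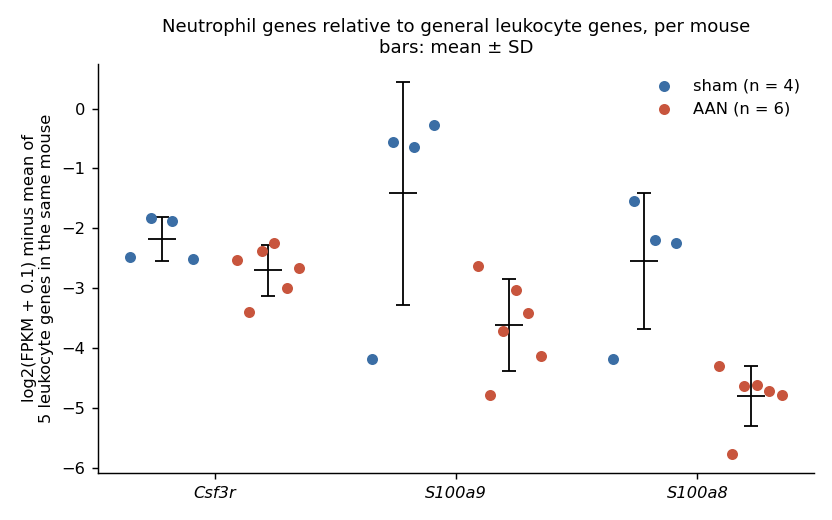
Level of Csf3r, S100a9 and S100a8 in each mouse as log2(FPKM + 0.1) minus the mean of 5 general leukocyte genes in the same mouse, 4 sham mice in blue and 6 AAN mice in red, with the mean ± SD in black. S100a8 was lower relative to leukocyte genes in every AAN mouse, from -5.77 to -4.30, and the low sham point of S100a8 and S100a9, at -4.19, is B607.

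Genes stored in or used by neutrophil granules and the oxidative burst rose for the most part. Of the 16 on this list 12 had a row and 9 were tested, of which 7 rose, against 35.8% of all genes. All 9 changes were positive, as were 82.3% of those of all genes. The median log2 change was 2.34 against 0.75 for all genes. Of the 6 with a sham mean of 0.1 FPKM or more 5 rose. Lcn2 encodes the iron-trapping lipocalin of secondary granules, which injured tubule cells also make. Its mean was 0.274 ± 0.169 FPKM in sham (SD, n = 4) and 46.4 ± 20.8 in AAN mice (SD, n = 6), with a log2 change of 6.87 (limma adjusted p = 2.50e-07). Cybb and Ncf1, subunits of the NADPH oxidase of neutrophils and macrophages, changed by 4.52 and 4.77 on the log2 scale. Slpi, a protease inhibitor that epithelia also secrete, changed by 3.20 (limma adjusted p = 0.000248). Ltf and Retnlg, which are lactoferrin and a resistin-like protein of neutrophils, did not pass, with changes of 0.52 (limma adjusted p = 0.186) and 0.48 (limma adjusted p = 0.531), and Ltf turned to -0.47 after quantile normalization. Ngp, Stfa2l1 and Padi4 were under the level for testing, and Ctsg, Ms4a3, Camp and Wfdc21 had no row. Ltf and Retnlg stayed low, at means of 0.192 and 0.170 FPKM in AAN mice. Prtn3 and Mmp8, named like Ltf and Retnlg after their values were seen, passed with 2.08 and 1.43 (limma adjusted p = 0.000350 and 0.00193). Both kept their call with the median of ratios and with quantile normalization. Their sham values were all at or under the level of 3 fragments, so they entered the fit through AAN mice alone. Padi4 was at 0 in every sham mouse and at 0.0327 to 0.261 FPKM in AAN mice.

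The receptors and adhesion molecules of neutrophils that were tested rose, though not all of them under every scaling. All 13 had a row, and 10 of 10 tested rose, against 35.8% of all genes, with a median log2 change of 3.18. The count was 9 after scaling by the median of ratios and 8 after quantile normalization. The share of all genes past the limits was 19.0% and 14.9% in these settings. Of the 10, Cxcr2, Fpr1, Itgam and Il1r2 had a sham mean under 0.1 FPKM, and the other 6 all rose. Itgb2 and Itgam, the chains of the Mac-1 integrin of neutrophils, monocytes and macrophages, changed by 4.84 and 5.25. Selplg, the P-selectin ligand, changed by 4.29, and C5ar1, the receptor for complement C5a, by 3.25 (SE 0.60). C5ar1 ranged from 0.745 to 10.2 FPKM in AAN mice, above every sham mouse, as for 40.3% of all genes tested. Cxcr1, Trem1 and Cd177 were under the level for testing. Cxcr2 and Ager are named after their values were seen. Cxcr2 changed by 1.09 (limma adjusted p = 0.0322). It lost its call with the median of ratios (0.79, adjusted p = 0.105) and with quantile normalization (0.24, adjusted p = 0.665). Ager lost its call with quantile normalization (0.71, adjusted p = 0.116) and kept it with the median of ratios.

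Attractants of neutrophils were low in sham mice. Of 9 genes 8 had a row and 7 were tested, of which 6 rose, against 35.8% of all genes, with a median log2 change of 3.88. Cxcl1, Cxcl2, Cxcl3, Cxcl5 and Csf2 had sham means under 0.1 FPKM and were tested through their AAN values alone, so this count is a description, and of the 2 with a higher sham mean 1 rose. For these 5 the log2 ratio of the AAN mean to the level of 3 fragments in sham mice, with nothing added, was also taken. With these ratios in place of their changes the median was 4.39. It mixes 2 measures, so it is not on the same scale as 3.88. Ppbp, a platelet chemokine, did not pass (0.55, limma adjusted p = 0.558, and -0.42 after quantile normalization). C3, the central complement protein, averaged 3.45 ± 0.756 FPKM in sham (SD, n = 4) and 382 ± 166 in AAN mice (SD, n = 6), and rose by 6.65 on the log2 scale with a limma adjusted p of 1.26e-07. Cxcl1, Cxcl5 and Cxcl2, ligands of the neutrophil receptor Cxcr2, changed by 5.84, 4.51 and 3.88. Their sham values were at or under the level of 3 fragments, so those sizes depend on the 0.1 added. In AAN mice Cxcl1 ranged from 2.68 to 14.6 FPKM, Cxcl5 from 0.618 to 4.55 and Cxcl2 from 0.482 to 3.41. Csf3, the ligand of Csf3r, was under the level for testing, with 0 in every sham mouse and at most 0.301 FPKM in AAN mice, and Il17a had no row.

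**Figure D3:**
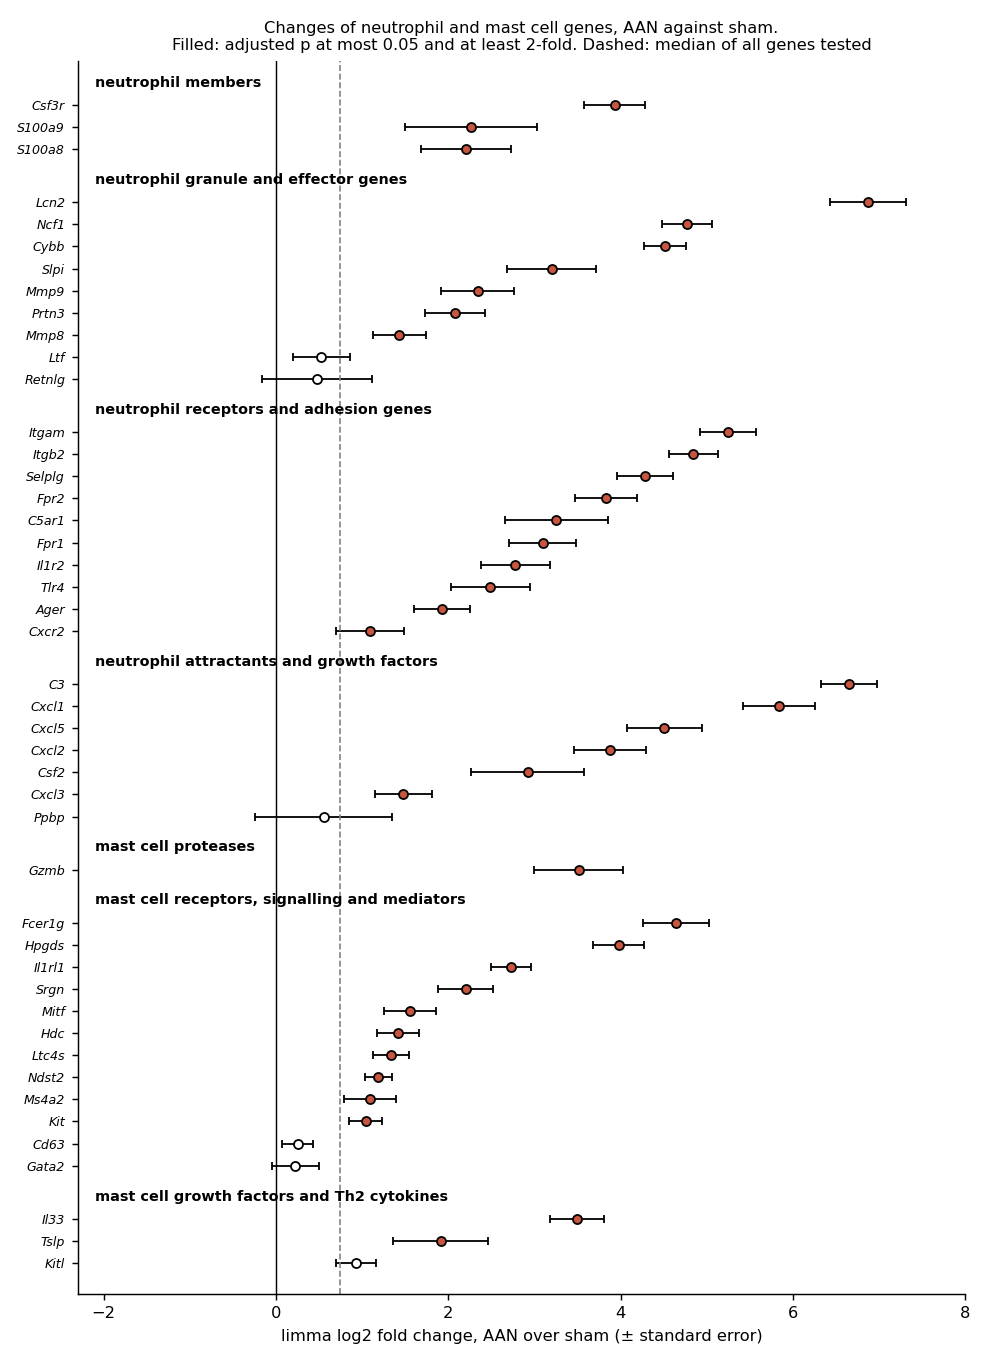
limma log2 fold change of AAN over sham, with its standard error, for each gene tested among the neutrophil genes and 6 lists of related genes. Filled points passed the limits (adjusted p at most 0.05 and at least 2-fold), and the dashed line is the median change of all genes, 0.75. Neutrophil lists sit mostly above 2 and 6 of the 12 mast cell receptor and mediator genes between 1 and 2.

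Mast cell proteases were nearly absent from the values. Of 8 further proteases, Mcpt1, Mcpt2, Cma1, Cma2, Tpsab1, Tpsg1 and Mcpt9 had no row. The 1 with a row, Gzmb, is also a granzyme of cytotoxic lymphocytes. It averaged 0.284 ± 0.194 FPKM in sham (SD, n = 4) and 4.08 ± 2.29 in AAN mice (SD, n = 6), and rose by 3.51 on the log2 scale with a limma adjusted p of 0.000128.

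Receptors, signalling genes and mediators of mast cells had a lower median change than the neutrophil lists, a difference that was not tested. Of 16 genes 14 had a row and 12 were tested, of which 10 rose, against 35.8% of all genes, with a median log2 change of 1.37. Of the 9 with a sham mean of 0.1 FPKM or more 7 rose. The count of 10 fell to 5 after scaling by the median of ratios (Fcer1g, Srgn, Hpgds, Il1rl1 and Hdc), against 19.0% of all genes, and to 4 after quantile normalization (without Hdc), against 14.9%. Fcer1g, the signalling chain of the IgE receptor that other Fc receptors of macrophages and neutrophils share, rose from 4.41 ± 0.567 (SD, n = 4) to 125 ± 46.7 FPKM (SD, n = 6). Its log2 change was 4.64 (limma adjusted p = 1.34e-06). Srgn, the core protein of the granule proteoglycan of many white blood cells, changed by 2.20. Ltc4s, which makes leukotriene C4, changed by 1.33, and by 0.58 (adjusted p = 0.0624) with the median of ratios. Cd63, a tetraspanin of granule and lysosome membranes, had a change of 0.25 (limma adjusted p = 0.232), which turned to -0.51 with the median of ratios. Gata2, a GATA factor of mast cells and other lineages, had 0.22 (limma adjusted p = 0.487) and turned to -0.51 in the same setting.

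Ms4a2 and Kit, receptor genes on that list, were picked out after their values were seen. Of the same list, Mrgprb1 and Mrgprb2 had no row, and Slc18a2 and Tph1 were under the level for testing. Ms4a2 encodes the beta chain of the IgE receptor. It ranged from 0.0255 to 0.0811 FPKM in sham mice and from 0.0994 to 0.366 in AAN mice. Sham values rested on at most 1.25 to 3.76 fragments and AAN values on at most 4.39 to 16.3. With a sham mean under 0.1 FPKM, Ms4a2 entered the fit through AAN mice alone. Its log2 change of 1.09 (limma adjusted p = 0.00831) became 0.71 (adjusted p = 0.0734) with the median of ratios and 0.04 (adjusted p = 0.924) with quantile normalization. Kit, the receptor for stem cell factor, ranged from 0.984 to 1.48 FPKM in sham and from 2.26 to 3.94 in AAN mice. The groups did not overlap, as for 40.3% of all genes tested. Cpa3 was at 0 in every sham mouse, and which cells carried Kit there was not tested. The Kit change of 1.04 (limma adjusted p = 0.000647) lay 0.30 above the median change of all genes, at percentile 64.5. It was 0.32 (adjusted p = 0.164) with the median of ratios and 0.01 (adjusted p = 0.966) with quantile normalization, so neither gene passed under these scalings.

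The genes that kept their call with the median of ratios, also chosen after their values were seen, include 3 used as mast cell genes. Hpgds and Il1rl1 also kept it with quantile normalization, and Hdc did not. Hpgds, a prostaglandin D2 synthase of mast cells and other cells, ranged from 0.0788 to 0.139 FPKM in sham and from 1.31 to 4.18 in AAN mice. Its log2 change of 3.98 was 3.41 (adjusted p = 7.37e-06) with the median of ratios and 2.86 (adjusted p = 4.72e-05) with quantile normalization. Il1rl1, the receptor for interleukin 33, ranged from 0 to 0.0549 FPKM in sham and from 0.530 to 1.02 in AAN mice, and its change of 2.73 was 2.37 and 1.87 in these settings. Hdc, the enzyme that makes histamine, ranged from 0.0228 to 0.0728 FPKM in sham and from 0.161 to 0.348 in AAN mice. Its change of 1.41 was 1.06 (adjusted p = 0.00357) with the median of ratios and 0.39 (adjusted p = 0.202) with quantile normalization. Values of the groups did not overlap for these 3 genes, as for 40.3% of all genes, and Il1rl1 and Hdc had sham means under 0.1 FPKM.

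Among the growth factors of mast cells and the Th2 cytokines, 6 of 8 had a row and 3 were tested. Of these 2 rose, against 35.8% of all genes, and 1 after quantile normalization, against 14.9%. Of the 2 with a sham mean of 0.1 FPKM or more 1 rose. Il33, an alarmin that acts on mast cells through Il1rl1, averaged 0.383 ± 0.0607 FPKM in sham (SD, n = 4) and 5.80 ± 2.67 in AAN mice (SD, n = 6), and rose by 3.50 on the log2 scale with a limma adjusted p of 2.40e-06. Tslp, an epithelial cytokine with a sham mean under 0.1 FPKM, changed by 1.91 (limma adjusted p = 0.0106) and by 1.16 (adjusted p = 0.140) with quantile normalization. Kitl, the ligand of Kit, did not reach 2-fold, with 0.93 (limma adjusted p = 0.00466), and turned to -0.02 with quantile normalization. Il4, Il5 and Il13 were under the level for testing, with Il13 at 0 in every sham mouse and at most 0.158 FPKM in AAN mice. Il3 and Il9 had no row.

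Markers of other cells moved with these genes. The summed FPKM of the neutrophil genes with a row was 0.228 to 2.05 in sham and 2.64 to 15.6 in AAN mice, and that of the mast cell genes 0 in sham and 0 to 0.0800 in AAN mice. The 8 monocyte and macrophage markers, led by Lyz2 and Csf1r, summed to 15.2 to 41.8 and 1266 to 3748 FPKM, and all 8 rose. The 5 general leukocyte genes, led by Cd52 and Cd53, went from 6.80 to 12.1 up to 127 to 408 FPKM, and all 5 rose. For both lists the share of all genes that rose was 35.8%. The part of macrophages in Csf3r and in the lists shared with neutrophils was not tested. Blood left in the cortex is tracked by 7 red blood cell and platelet genes, led by Pf4 and Hba-a1, which summed to 4.01 in B607, 7.79 in B634, 23.2 in B636 and 35.8 in H249, the same order as S100a9 in the sham mice. In AAN mice that sum was 27.0 to 62.6, and 1 of the 7, Pf4, which macrophages can also express, rose. B614 had the lowest sum through Pf4 (4.17 against 15.5 to 22.3 FPKM in the other AAN mice). Without Pf4 its sum of 22.8 was the second highest of the 6 AAN mice, which ranged from 12.9 to 40.7. The lowest was in A483, which had the highest S100a9 and S100a8 of the AAN mice (6.50 and 1.97 FPKM). In sham mice the order was the same without Pf4, from 3.67 in B607 to 34.5 in H249. S100a8 did not keep that order, with 0.256 FPKM in B634 and 0.247 in B636. The part of blood in the calprotectin genes was not tested.

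B614 also stood apart in the tubule markers. The 7 proximal tubule genes, led by Slc34a1 and Miox, summed to 2635 to 4669 FPKM in sham mice, 2331 in B614 but 660 to 1012 in the remaining AAN mice. Of the 7 genes 5 fell, against 3.43% of all genes. The 4 markers of injured tubule, led by Havcr1 and Vcam1, summed to 1.15 to 1.43 in sham and 88.5 to 268 in AAN mice, with B614 at 95.2. Its leukocyte sum of 127 was the lowest of its group. Without B614 the log2 changes were 4.23 for Csf3r, 2.56 for S100a8 and 2.66 for S100a9, each past the limits.

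**Figure D4:**
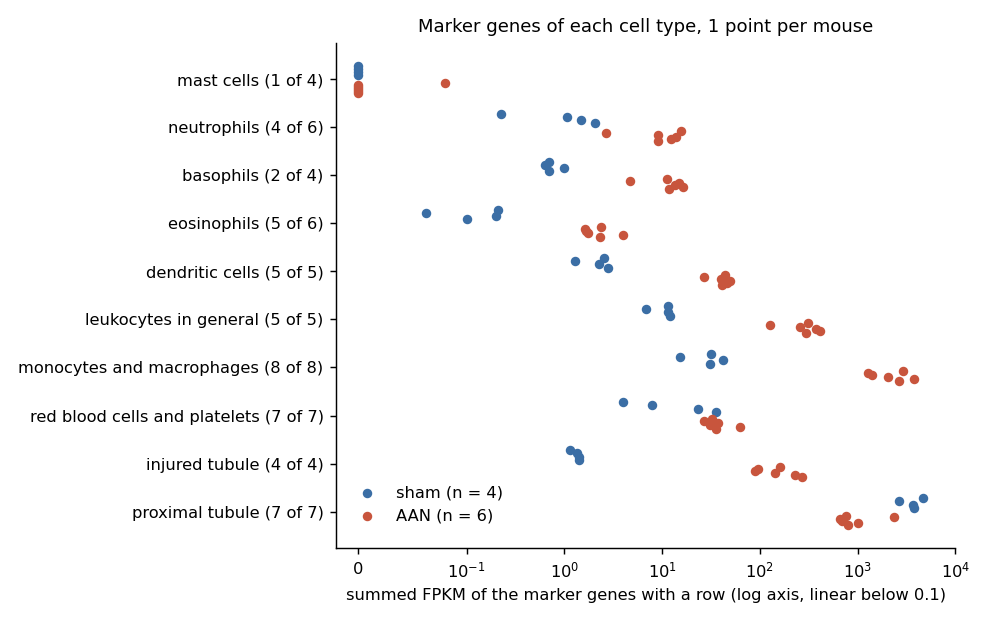
Summed FPKM of the marker genes with a row for each cell type (in brackets, genes with a row of genes listed) in each mouse, on a log axis that is linear below 0.1, with 4 sham mice in blue and 6 AAN mice in red. Neutrophil genes rise from 0.228 to 2.05 up to 2.64 to 15.6 and mast cell genes stay at 0 in all but A483, while macrophage markers reach 3748 and proximal tubule markers fall.

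The genes whose level followed S100a8 most closely from mouse to mouse were found among 12241 genes whose mean reached 1 FPKM, as deviations of log2 values from the group means over 10 mice. They were Rpa3 (Pearson r 0.971), Arfrp1 (0.970) and Cetn2 (0.970). S100a9 reached 0.948 and Csf3r 0.754. Rpa3, a subunit of the single-strand binding protein RPA, had 2.62 FPKM in B607 and 4.62 to 4.94 in the other sham mice, while among AAN mice B614 had 4.66 and the remaining 5 had 7.84 to 9.11. B607 and B614 were the lowest of their groups in Rpa3, Arfrp1 and Cetn2 as in S100a8, and the likeness is given as a description with no test. None was computed for Cpa3, which was above 0 in 1 mouse.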

How the data were processed

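RNA of the renal cortex of 10 mice was sequenced by the authors as paired-end TruSeq libraries on the HiSeq Xten. After filtering of rRNA, adapter, short and poor reads, they aligned with Hisat2 2.0.4 against GRCm38.p4, and StringTie 1.3.0 gave FPKM per known gene. The deposited values are these FPKM, with no counts and no further scaling between mice named. The annotation release and strand use are not given in the sources used here. The authors named edgeR for differential expression, with its input not stated, and it was not run here, since it models counts.

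Here, limma 3.58.1 (R 4.3.3; eBayes with trend and robust, two-sided) was fitted to log2(FPKM + 0.1) of the 17129 genes averaging 0.1 FPKM or more, with Benjamini-Hochberg adjustment over all of them and the study's limits of 0.05 and 2-fold. Differences of a single value per mouse were tested by exact two-sided permutation over 210 splits, whose smallest p is 0.00476. Python 3.11.15 and scipy 1.17.1 were used. Fold changes on this scale understate those of low genes. Depth came from the steps of FPKM in genes with 1 transcript, of which 94.9% to 97.1% of low values were whole fragments within 0.05. Fragments of a gene are an upper limit from its exonic length, and the level of 3 fragments is over its longest transcript, both for counting error only. Symbols and positions came from GENCODE mouse release M21 on GRCm38, which held 21650 of 21792 genes, and stretches before start sites from RefSeq on GRCm38.p6. Fits and exact tests were tested on simulated data.

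The members, gene lists and marker lists were chosen with earlier results of these data known. Named genes were the 10 members, the 4 genes of highest mean per list, each gene that passed where 5 or fewer of a list did, the 2 highest of the marker lists and the 3 genes most like S100a8. A few others were picked after their values were seen, as said where they appear. Some listed genes are not reported here. Alternatives were a pseudocount of 1 or 0.01, a filter at 1 FPKM or none, median of ratios, quantile normalization, an equal FPKM total, limma without trend and robust, no fold limit, each mouse left out and the mice with B tags alone. No batch is given in the labels. The labels do not say whether the mice were handled together, and the p-values measure the spread between these mice.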

Additional observations from a re-analysis of the deposited data

Results flagged for a closer look

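Of 61 groups of values examined for a mouse far from the others, 14 had one, where chance gives about 1 in 20, or 3.05. B607 and B614 gave 6 each, and A483 and B634 1 each. Many of these values are low and several are built from the same genes, so the flags are not independent of each other.

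In sham mouse B607 S100a8 was at 0 FPKM (others 0.247 to 0.308), Il33 at 0.293 (others 0.404 to 0.427), Srgn at 4.24 (others 5.63 to 5.95) and Cxcl5 at 0.0252 (others 0). Its S100a8 minus Cpa3 difference was 0 on the log2 scale (others 1.79 to 2.03), and its S100a9 minus the leukocyte mean was -4.19 (others -0.64 to -0.28). In sham mouse B634 Gzmb was at 0 (others 0.322 to 0.428).

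In AAN mouse B614 S100a8 was at 0.259 FPKM (others 1.11 to 1.97), Csf3r at 1.77 (others 5.69 to 7.82) and Fcer1g at 33.7 (others 122 to 159). Its neutrophil minus mast cell level was 2.22 (others 3.50 to 4.16), its S100a8 minus Cpa3 difference 1.84 (others 3.53 to 4.20) and its S100a8 minus the leukocyte mean -5.77 (others -4.78 to -4.30). In AAN mouse A483 Cpa3 was at 0.0800 FPKM and at 0 in the others.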

How the results depend on the processing

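The rise of Csf3r passed the limits in all 20 alternatives (log2 change 2.33 to 4.35), that of S100a8 in 17 of 19 and that of S100a9 in 17 of 20, with the losses given in the report. None of these results reversed its direction. The number of neutrophil genes past the limits went from 3 to 1 with quantile normalization, and to 2 to 3 with 1 mouse left out. It was 2 with a pseudocount of 1, with a filter at 1 FPKM and with the median of ratios. Cpa3, the mast cell gene with a row, was fitted only with no filter, where limma gave adjusted p values of 0.274 for Ly6g and 0.518 for Cpa3. Genes higher in AAN numbered 6126, but 2909 under a pseudocount of 1, 4025 under a filter at 1 FPKM, 3261 with the median of ratios, 2546 with quantile normalization and 9482 with no fold limit. Genes lower numbered 588, and 1801 with the median of ratios, 1992 with quantile normalization, 332 with an equal FPKM total and 1027 with no fold limit. Leaving out 1 mouse gave 5457 to 6653 and 528 to 701. Under the median of ratios and quantile normalization the median change of all genes moved from 0.75 to 0.06 and -0.10, so those scalings remove the shift by construction.

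Neutrophil minus mast cell level changed by 2.05, and by 1.11 with a pseudocount of 1 and 1.32 with quantile normalization. S100a8 minus Cpa3 changed by 1.10 with quantile normalization (exact permutation p = 0.129). Against leukocyte genes and a pseudocount of 0.01, S100a8 changed by -1.40 and S100a9 by -1.46 (exact permutation p = 0.357), and Csf3r minus S100a8 by 1.15. S100a9 changed by -2.02 in the mice with B tags (exact permutation p = 0.107), and by -3.12 to -1.82 with 1 mouse left out (exact permutation p 0.0119 to 0.0952). The Csf3r difference passed at -1.41 with a pseudocount of 1 and at -0.91 with quantile normalization. The cause was not tested. Within the mice with B tags, the calls of Csf3r, S100a8 and S100a9 were kept. No paired analysis was possible because the replicate numbers name different mice in each group and were given in label order. The pairs with Tpsb2, Fcer1a, Elane and Mcpt4 were not run, since these genes have no values here.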

Other observations

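Markers of other granule-bearing cells were in the values too. Of 6 eosinophil genes 5 had a row, and their summed FPKM was 0.0628 to 0.208 in sham and 1.62 to 3.94 in AAN mice. Of the 3 tested, Prg2 and Siglecf had sham means under 0.1 FPKM and entered the test through AAN mice alone. The third, Il5ra, the interleukin 5 receptor chain, rose (0.141 to 1.01 FPKM, limma adjusted p = 3.21e-05). Prg2, the major basic protein, was at 0 in every sham mouse and at 0.228 to 2.34 FPKM in AAN mice. Epx and Ccr3, both at 0 in every sham mouse, were under the level for testing, and Ear6 had no row. Of 4 basophil genes, Mcpt8 and Prss34 had no row. Il3ra, which other leukocytes and endothelium share, rose from 0.757 to 11.99 FPKM (limma adjusted p = 1.24e-06), and Cd200r3 was at 0 in sham and at 0.0304 to 0.196 FPKM in AAN mice.

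The 5 dendritic cell genes, led by Itgax and Cd209a, all rose (1 of them, Flt3, with a sham mean under 0.1 FPKM), against 35.8% of all genes. The summed FPKM of the 5 was 1.28 to 2.78 in sham and 26.7 to 49.3 in AAN mice.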
